A study of Homo sapiens with 24 samples.

Results

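The metallothionein family was followed across dopaminergic neurons derived from the LUHMES cell line. Its members were the 10 rows of the deposited count matrix named MT1A, MT1E, MT1F, MT1G, MT1H, MT1L, MT1M, MT1X, MT2A and MT3, out of 58051 genes. LUHMES is an established human line from embryonic mesencephalon, and its differentiation here was started with tetracycline and cAMP in medium containing GDNF. Neurons were exposed for 6 h to MS275 (entinostat, a histone deacetylase inhibitor) at 5 µM, Paraquat (a redox-cycling herbicide) at 5 µM, MPP (1-methyl-4-phenylpyridinium, a mitochondrial toxicant) at 5 µM, Ziram (zinc dimethyldithiocarbamate, a fungicide) at 2 µM, Rotenone (a mitochondrial complex I inhibitor) at 1 µM, 6-HD (6-hydroxydopamine) at 1 µM, Methyl_mercury (methylmercury chloride) at 0.5 µM, or the vehicle DMSO at 1% by volume. Each of the 8 groups had 3 libraries, which the series calls biological samples. All groups share 1 cell line and 1 exposure time, each toxicant was given at 1 dose, and every toxicant was set against the same 3 DMSO libraries.

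Metallothioneins are small, cysteine-rich proteins that bind zinc, copper, cadmium and mercury in clusters of thiolates. In most cells a rise in free zinc activates the transcription factor MTF1, which binds metal response elements in the promoters of MT1 and MT2 genes and of the zinc exporter gene SLC30A1. MT2A and the MT1 genes are inducible in many tissues, whereas MT3 is known mainly from brain and responds little to metals. MT1L is annotated as a transcribed pseudogene.

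The 10 genes lie within 95123 bases of chromosome 16, from 56589074 to 56684196 (GRCh38, GENCODE 29). MT1G is the 1 member on the minus strand, and the other 9 lie on the plus strand. RefSeq (GRCh38.p14) promoter windows, from 250 bases before to 50 after the start site, were at hand for 3 members. They are shown because the core of the metal response element recurs in each of them. Capitals mark each match on either strand to TGCACNC or TGCGCNC, so a match on the minus strand appears as GNGTGCA or GNGCGCA.
MT2A, chr16:56608334-56608633, plus strand: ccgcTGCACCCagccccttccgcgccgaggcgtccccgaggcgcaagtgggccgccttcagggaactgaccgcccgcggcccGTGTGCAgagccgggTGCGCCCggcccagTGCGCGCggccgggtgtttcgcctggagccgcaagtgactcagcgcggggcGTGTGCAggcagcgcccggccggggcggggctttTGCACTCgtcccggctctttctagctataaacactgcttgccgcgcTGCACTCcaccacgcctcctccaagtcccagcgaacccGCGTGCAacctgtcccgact
MT1H, chr16:56669564-56669863, plus strand: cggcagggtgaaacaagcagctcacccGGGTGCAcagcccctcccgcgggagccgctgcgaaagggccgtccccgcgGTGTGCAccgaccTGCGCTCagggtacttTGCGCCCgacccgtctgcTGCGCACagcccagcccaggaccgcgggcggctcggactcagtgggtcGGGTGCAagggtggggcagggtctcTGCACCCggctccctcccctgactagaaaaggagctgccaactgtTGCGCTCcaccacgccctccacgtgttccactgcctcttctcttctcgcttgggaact
MT1X, chr16:56682220-56682519, plus strand: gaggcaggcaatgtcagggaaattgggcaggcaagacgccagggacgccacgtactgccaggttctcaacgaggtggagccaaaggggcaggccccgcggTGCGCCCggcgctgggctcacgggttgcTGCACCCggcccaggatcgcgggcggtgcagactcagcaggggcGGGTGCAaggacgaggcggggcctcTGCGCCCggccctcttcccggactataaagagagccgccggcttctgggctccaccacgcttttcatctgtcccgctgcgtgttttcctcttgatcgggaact

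The MT2A window held 8 core matches, the MT1H window 8 and the MT1X window 4. Of 35116 promoter windows of 300 bases, 29.6% held at least 1 match, 0.601% held at least 4 and 7 windows (0.0199%) held at least 8. The antioxidant response element core, TGACNNNGC on either strand, matched once in MT2A and once in MT1X, against 13.4% of all windows. The words are short and a match is a description of sequence, not of binding. In the neurons, MT1X was already detected in DMSO, MT2A was near 0.5 CPM there and MT1H had 0 reads there, although the MT1H window held as many core matches as that of MT2A.

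Libraries held 9.69 to 46.9 megareads counted in genes (median 23.6). All 11 pan-neuronal markers, but 7 of 12 dopaminergic markers, stood at 1 CPM or more in DMSO, and LMX1A and FOXA2 were at 0 in every library. None of 5 microglial markers, 4 of 7 astrocyte markers and 3 of 5 oligodendrocyte markers reached 1 CPM there. Summed astrocyte markers, which matter because astrocytes are known for MT3 and MT2A, were at 45.3 to 47.5 CPM in ziram, 48.9 to 63.6 CPM in methylmercury and 40.0 to 43.8 CPM in DMSO. Summed markers of cycling precursors were at 372 to 421 CPM in ziram, 406.5 to 592 CPM in methylmercury, 404 to 436.5 CPM in 6-HD and 345 to 397 CPM in DMSO, so that methylmercury and 6-HD lay wholly above DMSO. In methylmercury 2 of these 6 markers were called higher, TOP2A at 1.44-fold and CDK1 at 1.61-fold (edgeR adjusted p = 0.0365 each). The part of other cell types in the results was not tested. Rotenone replicate 1 stood apart from its group by a chi-square per degree of freedom over all genes. It was 22.4 and 25.2 against replicates 2 and 3, which differed from each other by 5.26. MS275 replicate 3 (19.1 and 20.3, against 5.71) and MPP replicate 3 (18.9 and 14.5, against 6.18) stood apart likewise. The statistic uses raw counts and grows with depth, and rotenone replicates 1, 2 and 3 held 24.7, 9.69 and 12.4 megareads. Since these are bulk RNA libraries, more cells expressing a gene and more RNA per cell cannot be told apart.

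Levels are given as counts per megaread (CPM) over library totals scaled by the trimmed mean of M values. In DMSO the family was represented almost wholly by MT1F and MT1X, both inducible MT1 isoforms. MT1F stood at 7.88 ± 1.16 CPM and MT1X at 2.22 ± 0.430 CPM (SD, n = 3 each). MT2A followed at 0.537 ± 0.159 CPM, MT1E at 0.0861 CPM and MT1G at 0.0233 CPM, the last from 2 reads. MT1A, MT1H, MT1L, MT1M and MT3 had 0 reads in all 3 DMSO libraries. Per kilobase of exon, the DMSO order was MT1F at 4.17, MT1X at 1.25, MT2A at 0.414, MT1E at 0.0818 and MT1G at 0.0311 CPM per kb. The libraries of MT1F, MT1X, MT2A and MT1E did not overlap from each to the next in that order, whereas MT1E and MT1G did. MT1F and MT1X are called the DMSO-expressed members below, and the other 8, all under a mean of 1 CPM in DMSO, the near-absent members.

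**Figure D1:**
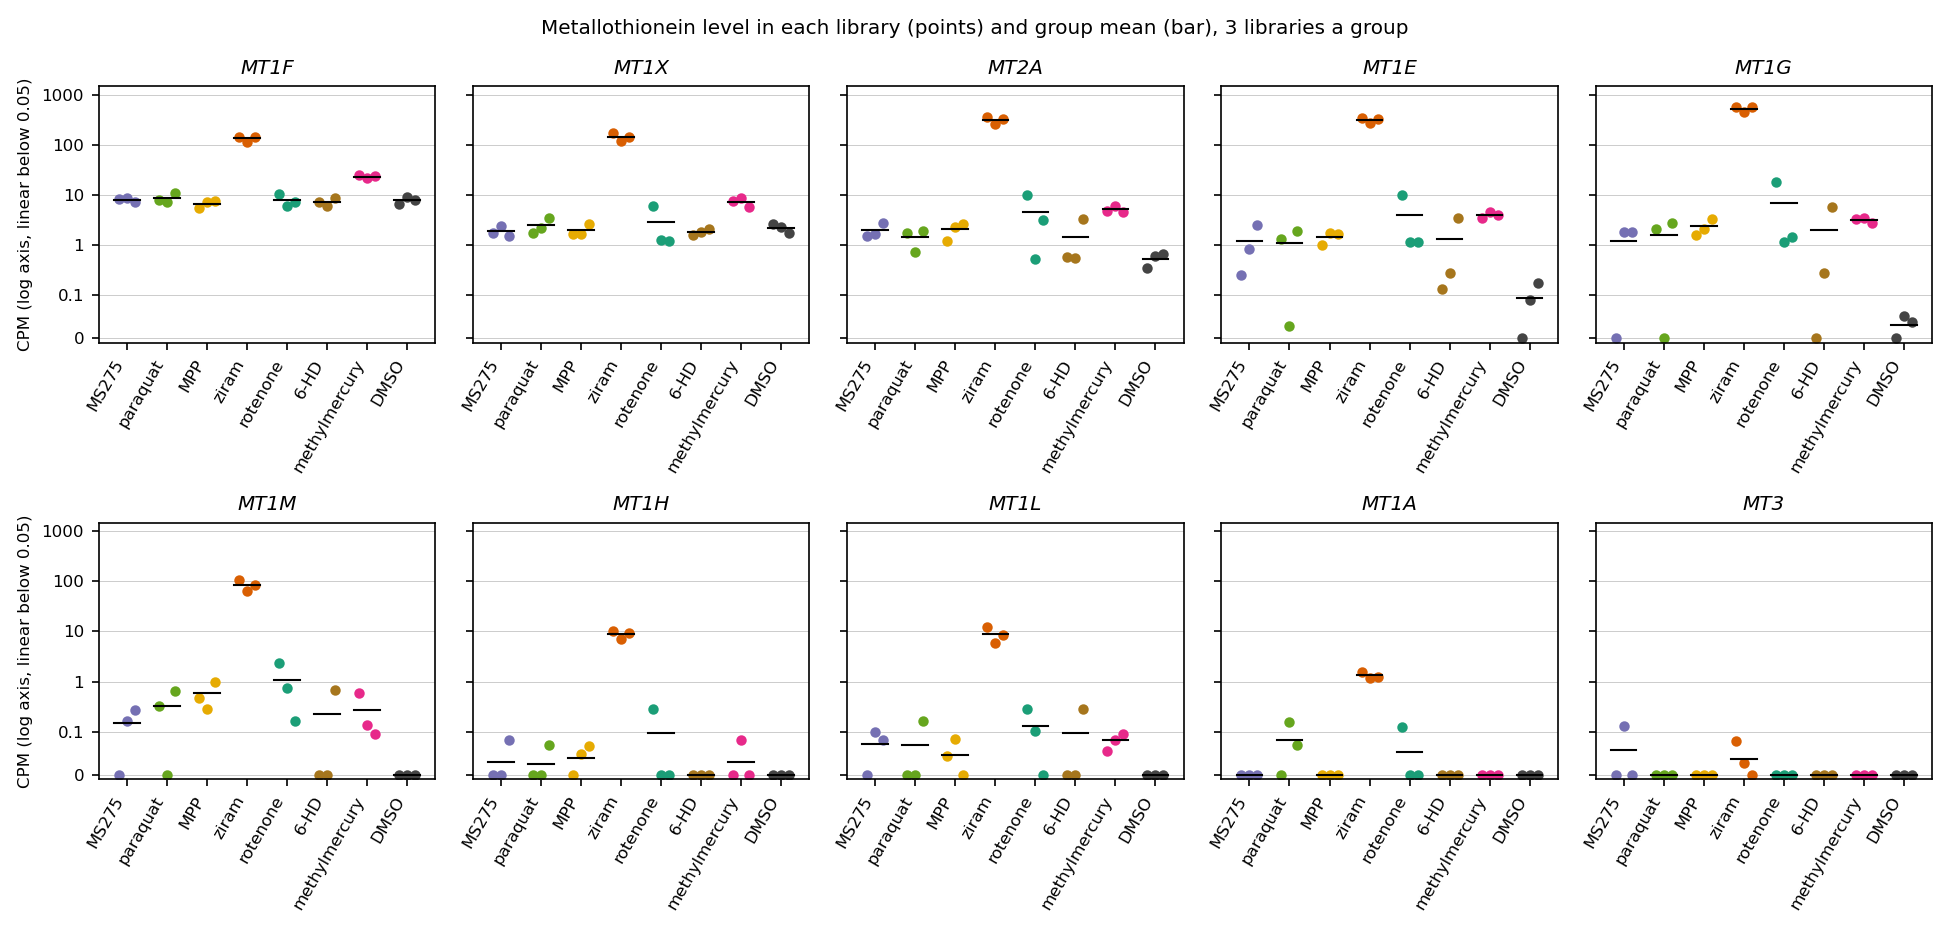
CPM of each metallothionein (log axis, linear below 0.05) in the 24 libraries, with toxicant groups on the left of DMSO, points for libraries and bars for group means. Ziram stands highest for 9 members, and the 5 toxicants other than ziram and methylmercury overlap DMSO for MT1F. Methylmercury lies above DMSO for MT1F, MT1X, MT2A, MT1E and MT1G, and on few reads also for MT1M and MT1L.

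Ziram raised 9 of the 10 metallothioneins against DMSO, and the library ranges of these 9 did not overlap DMSO. The share of all genes with separate ranges was not counted, so this count of ranges has no background beside it. Together the 10 members took 0.160% ± 0.0241 of all counts in ziram, against 0.00108% ± 0.000126 in DMSO (SD, n = 3 each). Across all 18852 genes tested by edgeR's quasi-likelihood test with Benjamini-Hochberg adjustment, 0.53% were called in ziram against DMSO, 0.408% higher and 0.122% lower. All 9 members that passed the count filter were called higher, but MT1A, MT1H and MT1L passed it only through the ziram libraries, so that their calls follow in part from the filter. MT3 did not pass it.

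MT1F had 147, 116.5 and 146 CPM in the ziram libraries, against 6.69, 9.01 and 7.95 CPM in the DMSO libraries. Every ziram library lay far above every DMSO library. The fitted increase of MT1F was 17.1-fold (log2 4.10, 95% interval 3.74 to 4.45, edgeR adjusted p = 9.86e-17). MT1X had 175, 120.5 and 142 CPM in ziram, against 2.63, 2.26 and 1.77 CPM in DMSO. MT1X thus passed the level of MT1F in 2 of the 3 ziram libraries counted per gene, although it was the lower of the pair in every DMSO library. Its fitted increase was 67.6-fold (log2 6.08, interval 5.43 to 6.73, edgeR adjusted p = 1.64e-14).

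MT2A, the most widely expressed isoform of human tissues, had 359, 263 and 331 CPM in ziram, against 0.356, 0.606 and 0.6505 CPM in DMSO. The groups were far apart, and the fitted increase was 548-fold (log2 9.10, interval 8.11 to 10.09, edgeR adjusted p = 1.99e-14). MT1E, another inducible MT1 isoform, had 349.6, 270.9 and 329.8 CPM in ziram, against 0, 0.0808 and 0.177 CPM in DMSO. Its 3 ziram libraries were level with those of MT2A, and its fitted log2 increase was 11.43 (interval 9.86 to 13.001, edgeR adjusted p = 6.35e-12). MT1G, the member named in the title of the series, was the highest member in each ziram library, at 583, 446 and 567 CPM, against 0, 0.0404 and 0.0296 CPM in DMSO. With 2 reads in all of DMSO, its ratio of scaled counts was 18800 with an exact 95% counting interval of 5210 to 155000 (edgeR adjusted p = 2.62e-10).

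Another 4 members gave no read in DMSO, so their increases are lower bounds, taken against 3 counts for the whole DMSO group. MT1M, at 105, 64.6 and 84.75 CPM in ziram and without a DMSO read, increased at least 1970-fold (edgeR adjusted p = 6.35e-12). MT1H, at 10.1, 6.99 and 9.485 CPM in ziram, increased at least 207-fold (edgeR adjusted p = 2.81e-08). MT1L, at 12.1, 5.77 and 8.62 CPM in ziram, increased at least 202-fold (edgeR adjusted p = 1e-07). MT1M thus stayed under the 116.5 to 147 CPM of MT1F in ziram, and MT1H and the pseudogene MT1L stayed well under both. MT1A was the weakest of the called members, with 48, 57 and 39 reads in ziram and 0 in DMSO, an increase of at least 31.7-fold (edgeR adjusted p = 0.00893). That call was lost without any 1 of the DMSO libraries (adjusted p = 0.0543, 0.083 and 0.0872) and without ziram replicate 1 (0.0699). MT3 had 2, 1 and 0 reads in ziram, 4 reads in MS275 replicate 2 and 0 reads in the other 20 libraries, DMSO included.

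**Figure D2:**
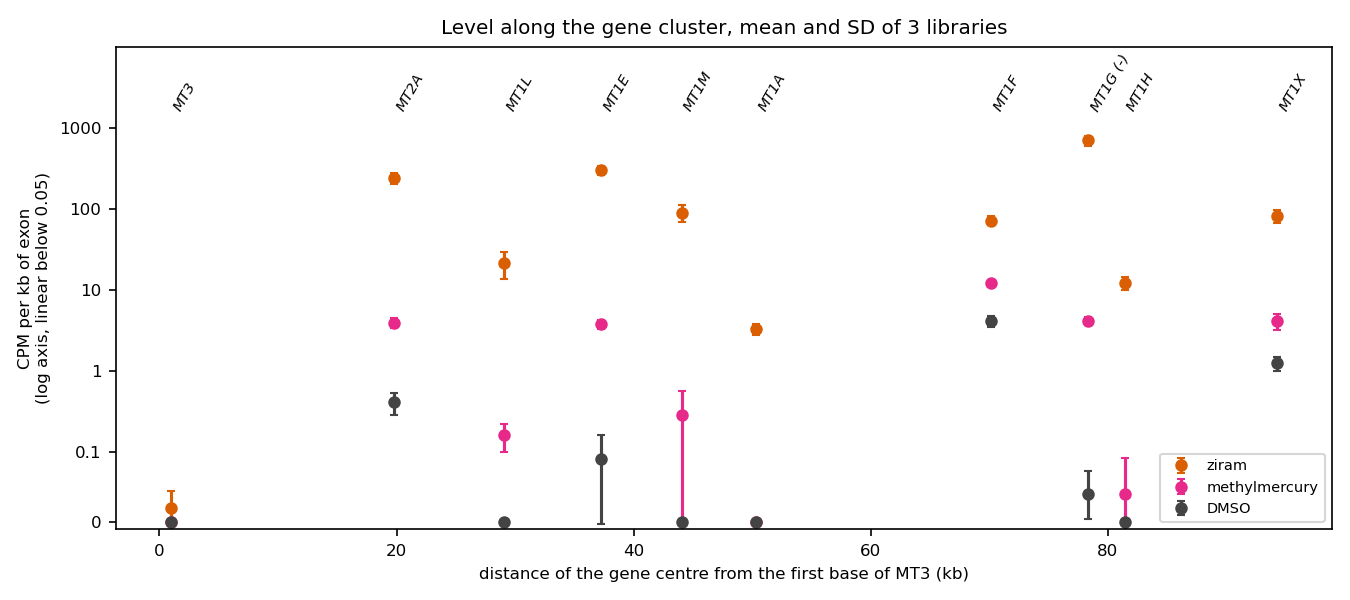
Mean CPM per kilobase of exon (log axis, linear below 0.05) with SD of 3 libraries for each member, placed by the distance of its centre from the first base of MT3, in ziram, methylmercury and DMSO; (-) marks the minus strand. Highest in ziram is MT1G at 709.5 CPM per kb, next to MT1H at 12.3 CPM per kb, and MT3 at the end of the cluster is at or near 0 in all 3 groups.

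Per kilobase of exon the ziram order was MT1G at 709.5 ± 99.8, MT1E at 301 ± 38.9, MT2A at 244.5 ± 37.8, MT1M at 89.9 ± 21.2, MT1X at 82.2 ± 15.4 and MT1F at 72.3 ± 9.17 CPM per kb (SD, n = 3). MT1L followed at 21.5 ± 7.74, MT1H at 12.3 ± 2.28, MT1A at 3.37 ± 0.521 and MT3 at 0.0156 ± 0.0182 CPM per kb. The libraries of MT1E and MT2A overlapped, as did those of MT1M and MT1X and those of MT1X and MT1F, while the other neighbours in the order were separate. The order did not follow position in the cluster. MT1G and MT1H, adjacent genes transcribed away from each other, stood at 709.5 and 12.3 CPM per kb.

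The copies are alike in sequence, which bears on how reads were split among them. Of all 50-base windows of the annotated transcripts, the share found in no other gene was 81.7% for MT1X, 83.5% for MT1G, 84.2% for MT1H, 90.1% for MT1M, 92.9% for MT1E, 94.2% for MT1A, 95.6% for MT1L, 97.0% for MT2A, 98.8% for MT1F and 100% for MT3. At 100 bases the share was 88.7% for MT1X, 98.6% for MT1H and 100% for the other 8. MT1X overlaps AC026461.1 on the same strand, which had 0 reads in ziram and DMSO. The labels give neither read length nor the treatment of reads that match more than 1 gene, so the split among the copies remains uncertain.

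Methylmercury raised both DMSO-expressed members and the better-expressed near-absent ones, at far lower levels than ziram. Against DMSO 4 members, MT1F, MT1X, MT2A and MT1E, were called higher and 0 lower, where 0.286% of all genes were called, 0.223% higher and 0.0637% lower. MT1F had 24.7, 21.7 and 23.6 CPM in methylmercury, against 6.69, 9.01 and 7.95 CPM in DMSO. The 3 libraries were close together and all above DMSO, with a fitted increase of 2.93-fold (log2 1.55, interval 1.21 to 1.89, edgeR adjusted p = 1.09e-06). This was the 1 methylmercury call that held when any 1 library was left out.

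MT1X had 7.57, 8.88 and 5.68 CPM in methylmercury, against 2.63, 2.26 and 1.77 CPM in DMSO, an increase of 3.36-fold (log2 1.75, interval 1.09 to 2.41, edgeR adjusted p = 0.00892). The groups did not overlap, but the call was lost without DMSO replicate 2 (adjusted p = 0.0753), DMSO replicate 3 (0.0625) or methylmercury replicate 2 (0.103). MT2A had 4.81, 5.99 and 4.68 CPM in methylmercury, against 0.356, 0.606 and 0.6505 CPM in DMSO. Its increase was 8.77-fold (log2 3.13, interval 1.99 to 4.27, edgeR adjusted p = 0.00778), which was lost without DMSO replicate 2 (0.0753). MT1E had 3.515, 4.51 and 3.98 CPM in methylmercury, against 0, 0.0808 and 0.177 CPM in DMSO. The groups were separate at a fitted 34.5-fold (edgeR adjusted p = 0.0218), a call that was lost without any 1 DMSO library or methylmercury replicate 2, with adjusted p values of 0.0843 to 0.17.

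MT1G had 3.305, 3.43 and 2.76 CPM in methylmercury, against 0, 0.0404 and 0.0296 CPM in DMSO. Although these libraries lay close together, the difference did not pass over all genes (ratio 112, counting interval 30.6 to 930, edgeR adjusted p = 0.12), whereas DESeq2 called it (adjusted p = 0.0223), as did edgeR on the 2 groups alone (8.31e-06). MT1M had 14, 2 and 3 reads, MT1L 1, 1 and 3, MT1H 0, 1 and 0, and MT1A and MT3 none in methylmercury. Per kilobase, MT1F led at 12.4 ± 0.790, and MT1G at 4.22, MT1X at 4.16, MT2A at 3.97 and MT1E at 3.80 CPM per kb overlapped each with the next.

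**Figure D3:**
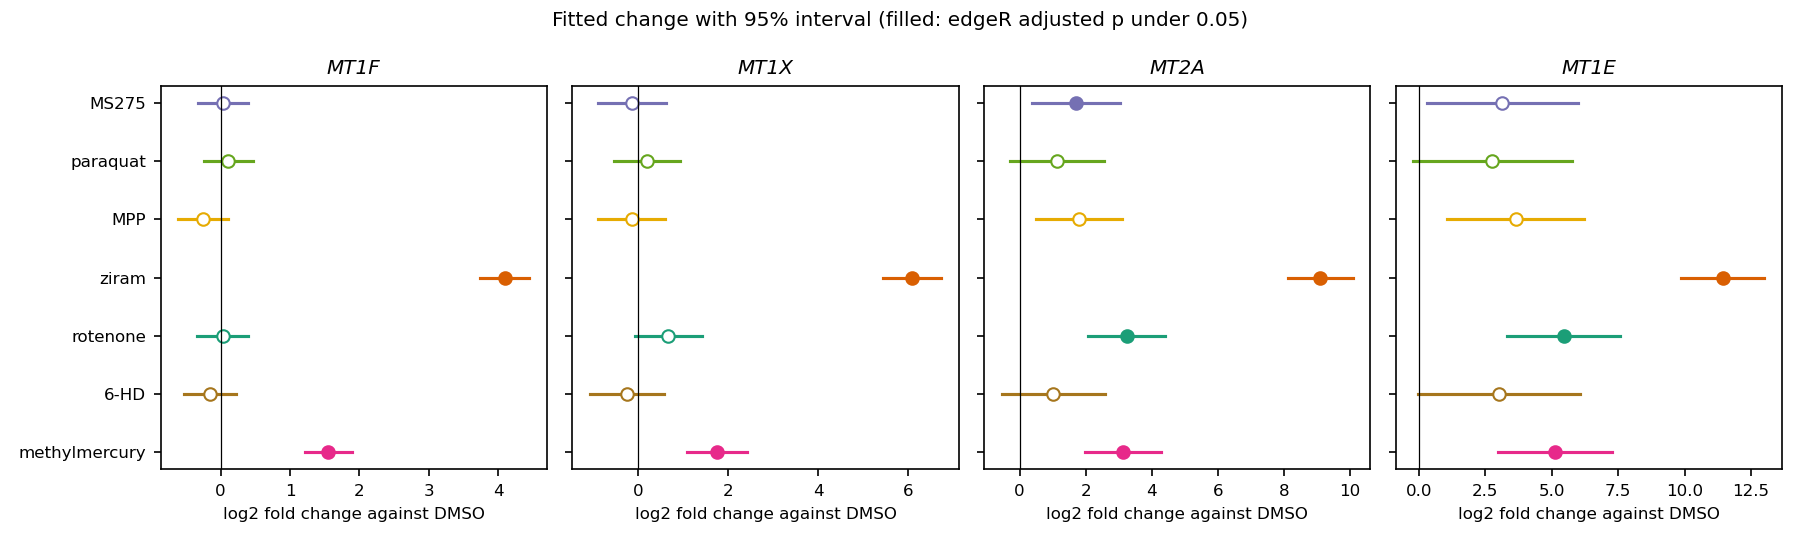
Fitted log2 fold change against DMSO with its 95% interval for the 4 members with the most DMSO reads, one row per toxicant; filled points passed the edgeR threshold of 0.05 over all genes. MT1F and MT1X are filled for ziram and methylmercury, MT2A also for MS275 and rotenone, and MT1E also for rotenone.

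Set against methylmercury directly, ziram was higher for all 9 members tested, where 1.09% of all genes were called, 0.743% higher and 0.345% lower in ziram. MT1A, MT1H and MT1L passed the count filter only through the ziram libraries, so that their calls here also follow in part from the filter. DESeq2 called 6 members higher. The doses differed, at 2 µM ziram and 0.5 µM methylmercury, so the values describe these exposures and not the agents at equal dose. The difference was smallest for MT1F, at 5.84-fold (log2 2.54, interval 2.22 to 2.87, edgeR adjusted p = 3.47e-12), and 20.1-fold for MT1X. It was 62.5-fold for MT2A, 79.9-fold for MT1E and 170-fold for MT1G. MT1M differed by 311-fold, on 19 reads in methylmercury. MT1F and MT1X, the members with the highest DMSO levels, thus differed least between the exposures and MT1G and MT1M more.

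In Rotenone the near-absent members were called higher, and these calls rested on 1 library. MT1E, MT1G, MT1M and MT2A were called higher and 0 members lower, where 5.52% of all genes were called, 2.76% higher and 2.76% lower. MT2A had 10.0, 0.525 and 3.12 CPM in rotenone, against 0.356, 0.606 and 0.6505 CPM in DMSO (edgeR adjusted p = 0.000491). MT1E had 9.87, 1.155 and 1.15 CPM, against 0, 0.0808 and 0.177 CPM in DMSO (edgeR adjusted p = 0.00122). Rotenone replicate 1 was highest by far for both, and for MT2A replicate 2 lay within the DMSO range. MT1G and MT1M showed the same uneven spread, with 457, 11 and 18 reads and 57, 7 and 2 reads in rotenone, against 2 and 0 reads over DMSO. Without rotenone replicate 1, 0 members were called, with adjusted p values of 0.0781 for MT2A, 0.127 for MT1E, 0.118 for MT1G and 0.0862 for MT1M. MT1X had 6.11, 1.26 and 1.23 CPM in rotenone, against 2.63, 2.26 and 1.77 CPM in DMSO, so that replicate 1 lay above, and replicates 2 and 3 below, every DMSO library.

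In MPP, MT1G and MT1M were called higher and 0 members lower, where 10.8% of all genes were called, 5.77% higher and 5.02% lower. MT1G had 1.58, 2.09 and 3.38 CPM in MPP, against 0, 0.0404 and 0.0296 CPM in DMSO. All 3 MPP libraries lay above DMSO, at a ratio of 80.2 with a counting interval of 21.9 to 668 (edgeR adjusted p = 0.0404), and the call was lost when any 1 of the 6 libraries was left out (0.0503 to 0.14). MT1M had 14, 8 and 19 reads in MPP and 0 in DMSO, an increase of at least 12.9-fold (edgeR adjusted p = 0.0267), and lost its call without any 1 DMSO library or MPP replicate 3 (0.0619 to 0.105). MT2A, at 1.22, 2.34 and 2.69 CPM in MPP, and MT1E, at 0.99, 1.77 and 1.64 CPM, also stood above all DMSO libraries without passing (edgeR adjusted p = 0.064 and 0.0595). The DMSO-expressed members did not differ detectably in MPP, with a log2 difference of -0.25 for MT1F (interval -0.61 to 0.11) and -0.15 for MT1X (interval -0.90 to 0.60).

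In MS275, 1 metallothionein, MT2A, was called higher and 0 lower, where 43.2% of all genes were called, 20.1% higher and 23% lower. MT2A had 1.495, 1.68 and 2.81 CPM in MS275, against 0.356, 0.606 and 0.6505 CPM in DMSO. The groups did not overlap, at a fitted 3.27-fold (log2 1.71, interval 0.38 to 3.04, edgeR adjusted p = 0.0343), and leaving out any 1 library other than MS275 replicate 1 ended the call (0.0528 to 0.098). MT1E spread over 0.249 to 2.47 CPM in MS275, against 0 to 0.177 CPM in DMSO, and did not pass (edgeR adjusted p = 0.069), and MT1G had 0, 55 and 27 reads. MT1F was level with DMSO in MS275, with a log2 difference of 0.03 (interval -0.33 to 0.39).

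In Paraquat and 6-HD no member was called. For Paraquat edgeR called 0% of all genes, 3 members had an unadjusted p under 0.05 in the higher direction and 0 in the lower, and DESeq2 called 0. For 6-HD edgeR called 0.0106% of all genes, 1 member had an unadjusted p under 0.05, and DESeq2 called 0 members. The shares of all genes are at the adjusted threshold. How many genes had an unadjusted p under 0.05 was not counted, so the unadjusted counts have no background. Of the 3 members in Paraquat, MT1A passed the count filter only through ziram and rested on 8 reads. MT2A had 1.72, 0.719 and 1.90 CPM in Paraquat and 0.585, 0.548 and 3.26 CPM in 6-HD, against 0.356, 0.606 and 0.6505 CPM in DMSO. MT1E had 20, 1 and 35 reads in Paraquat and 3, 5 and 37 in 6-HD, against 0, 2 and 6 in DMSO. In each of these groups the near-absent members were uneven between libraries, with Paraquat replicate 2 and 6-HD replicates 1 and 2 close to DMSO and the others higher. MT1A, which had no read in most libraries, gave 7 reads in Paraquat replicate 2, the library that had 0 reads of MT1G and MT1M.

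Both classes of members were then compared library by library, since the near-absent members allow a low level to be seen that MT1F and MT1X would hide. Summed over the 8 near-absent members, ziram libraries held 1420, 1059 and 1332 CPM and DMSO libraries 0.356, 0.727 and 0.858 CPM. As a percent of the mean ziram level, the 3 methylmercury libraries stood at 0.965, 1.12 and 0.914, and the 3 DMSO libraries at 0.0280, 0.0572 and 0.0675. Methylmercury was thus the most even of the other toxicants. MPP libraries stood at 0.338, 0.519 and 0.690 percent, MS275 libraries at 0.137, 0.371 and 0.593 and Paraquat libraries at 0.432, 0.0704 and 0.585. Rotenone libraries stood at 3.26, 0.289 and 0.465 percent and 6-HD libraries at 0.0567, 0.0863 and 1.06. Of the 18 libraries treated with a toxicant other than ziram, 6-HD replicate 1 was the only one within the DMSO range of 0.0280 to 0.0675, and Paraquat replicate 2 and 6-HD replicate 2 were the next lowest.

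The DMSO-expressed members gave another picture. MT1F and MT1X summed to 237 to 321 CPM in ziram, 29.3 to 32.3 CPM in methylmercury and 9.32 to 11.3 CPM in DMSO. In the other toxicants they summed to 8.84 to 11.1 CPM in MS275, 9.42 to 14.7 in Paraquat, 7.26 to 10.1 in MPP, 7.24 to 16.5 in Rotenone and 8.01 to 10.6 in 6-HD, and each of these ranges overlapped DMSO. The near-absent members made up 81.5 to 82.2% of all metallothionein reads in ziram, 27.5 to 31.7% in methylmercury and 3.68 to 8.10% in DMSO. In rotenone replicate 1 the share was 71.5% (exact 95% interval 69.1 to 73.9), between methylmercury and ziram, and in 6-HD replicate 3 it was 55.8% (49.4 to 62.0).

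**Figure D4:**
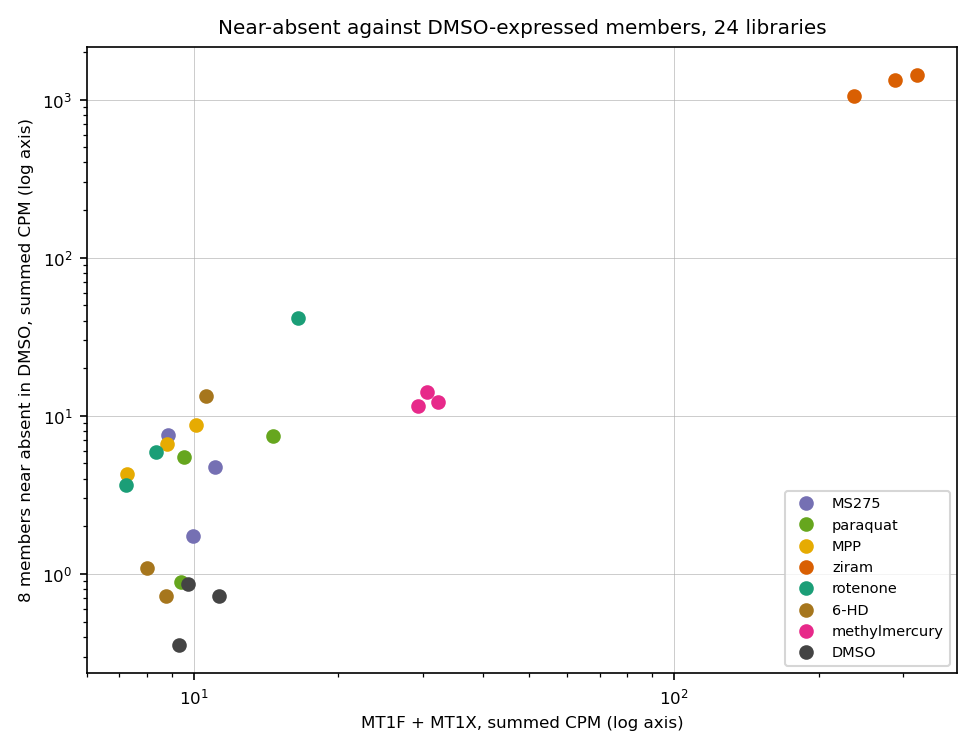
Summed CPM of the 8 near-absent members against summed CPM of MT1F and MT1X (both log axes) in each of the 24 libraries, coloured by group. Methylmercury lies to the right at 29.3 to 32.3 CPM, rotenone replicate 1 lies above it at 16.5 CPM, and most libraries of the other toxicants lie above DMSO on the vertical axis and near it on the horizontal one.

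Rises above the DMSO mean were also expressed as a percent of the rise seen in ziram. In methylmercury this was 0.863 to 1.07% for the near-absent members, 2.41 to 4.64% for MT1X and 10.8 to 13.1% for MT1F, so the 3 measures were separate in every library. In rotenone replicate 1 they were 3.21, 2.71 and 1.92%, closer together than in methylmercury. In the 14 remaining libraries, apart from ziram and DMSO, the near-absent members lay 0.00577 to 1.005% of the ziram rise above the DMSO mean, while MT1X ranged from -0.692 to 0.870% and MT1F from -1.77 to 2.56%. The DMSO libraries themselves ranged from -0.313 to 0.286% for MT1X and from -0.929 to 0.874% for MT1F. For the near-absent members they ranged from -0.0229 to 0.0166%, which includes 6-HD replicate 1 at 0.00577%. The near-absent members were chosen for low DMSO values, with a DMSO mean of 0.0509% of ziram. They could thus hardly fall below that mean, unlike MT1X and MT1F, and the difference in sign follows in part from this choice.

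The makeup of the near-absent reads was close to constant among the ziram libraries and different in methylmercury. MT1G supplied 41.1 to 42.6% of them in ziram, 23.8 to 27.0% in methylmercury and 0 to 5.56% in DMSO. MT2A supplied 24.9 to 25.3% in ziram, 39.3 to 42.2% in methylmercury and 75.9 to 100% in DMSO. MT1M supplied 6.11 to 7.37% in ziram, 0.785 to 4.78% in methylmercury and 0% in DMSO, whose libraries held only 5 to 29 such reads each. In rotenone replicate 1, with 1023 such reads, MT1G supplied 44.7% (exact 95% interval 41.6 to 47.8), MT2A 24.2% (21.6 to 27.0), MT1E 23.9% (21.3 to 26.6) and MT1M 5.57% (4.25 to 7.16). Each of these 4 intervals includes at least 2 of the 3 ziram values. The makeup in 6-HD replicate 3 was also close to that of ziram, with 140 such reads, of which MT1G supplied 42.1% (33.9 to 50.8), MT1E 26.4% (19.3 to 34.5), MT2A 24.3% (17.4 to 32.3) and MT1M 5.00% (2.03 to 10.0). Paraquat replicates 1 and 3, with 83 and 137 such reads, had MT1G at 38.6% (28.1 to 49.9) and 36.5% (28.4 to 45.2). These intervals include the ziram values and not the methylmercury ones. For MT2A the same held in replicate 3 (18.5 to 33.7), whereas the interval in replicate 1 (21.6 to 42.4) includes the values of both. In MS275 replicate 2 the interval of MT1G (30.45 to 46.96) includes the ziram values alone. That of MT2A there (27.8 to 44.1) includes the methylmercury values alone. MS275 replicate 3, with 110 such reads, had intervals of 16.84 to 33.67 for MT1G and 28.24 to 47.01 for MT2A. Both include the methylmercury values and not the ziram ones. Rotenone replicate 3 (72 reads) had intervals of 15.54 to 36.6 and 40.65 to 64.67, which include methylmercury values and no ziram value. Rotenone replicate 2 (35 reads) included the ziram values alone for MT2A (4.81 to 30.26) and both for MT1G (16.85 to 49.29). The 3 MPP libraries had MT1G at 31.7 to 38.6% and MT2A at 28.5 to 35.5%, as point values between ziram and methylmercury. In replicates 1 and 3 the intervals of MT1G (28.63 to 45.83 and 31.11 to 46.41) include the ziram values and not the methylmercury ones. Those of MT2A (20.9 to 37.04 and 23.81 to 38.34) do likewise. In MPP replicate 2 the interval of MT1G ends at 38.97, below the ziram values, and includes the highest methylmercury value. That of MT2A there (28.6 to 42.92) includes the methylmercury values alone. The MPP shares of MT1M, 4.37 to 11.5%, and of MT1E, 18.7 to 26.8%, reached outside the ranges of both groups. The intervals of these shares include some or all of the ziram values in each MPP library. Whether the reads of these libraries arose in their own cells was not tested. These intervals cover counting error only.

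**Figure D5:**
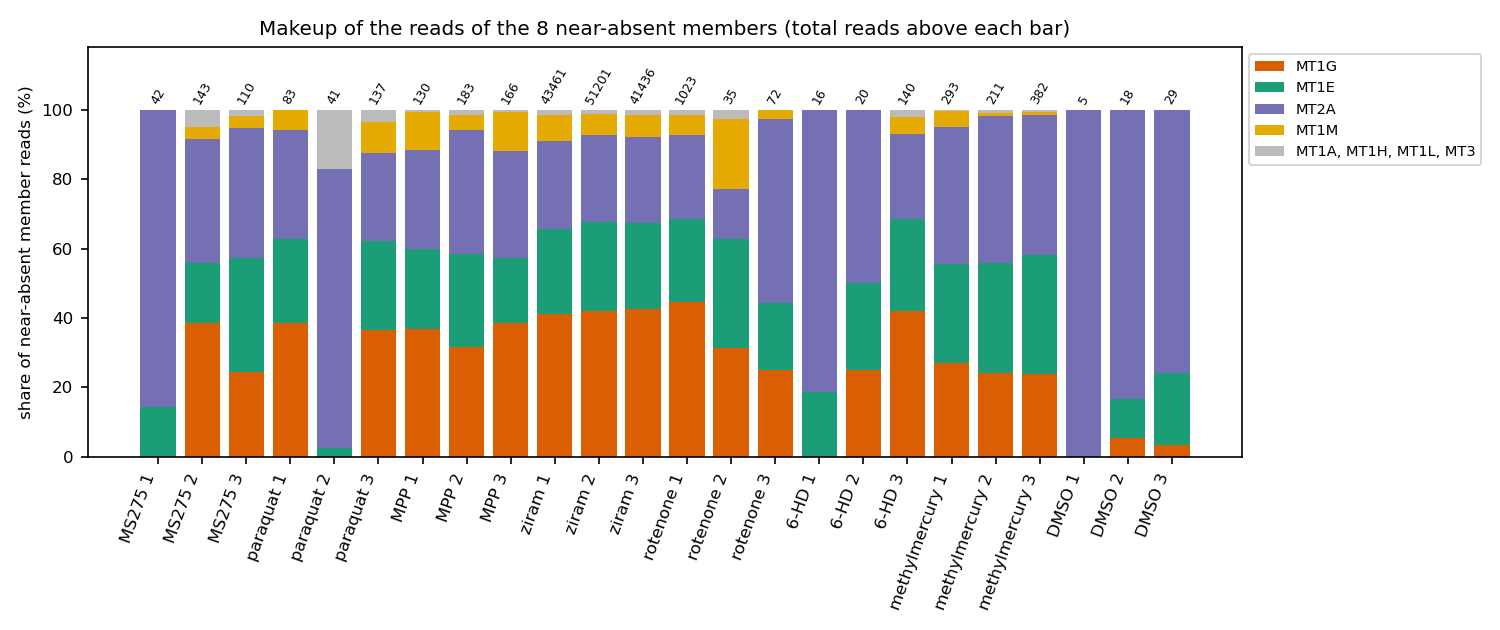
Share of each near-absent member in the summed reads of all 8, as stacked bars from 0 to 100% for each library, with the number of such reads above the bar; toxicants are left of DMSO. MT1G makes up 41.1 to 42.6% in ziram and 23.8 to 27.0% in methylmercury, and DMSO bars are mostly MT2A.

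Other genes that marked 1 toxicant were read in the same way, as a measure of whether signal particular to 1 group appeared elsewhere. Outside the family, HSPA6 alone, an inducible heat shock protein, met the rule for ziram (3 or fewer DMSO reads, at least 16-fold and at least 2 CPM in every ziram library). As a percent of its ziram mean, HSPA6 stood at 5.61, 19.02 and 10.5 in the Rotenone libraries, 1.30 to 7.17 in methylmercury and 0 to 0.946 in DMSO. It had 0 reads in all MS275 and 6-HD libraries, in which near-absent metallothioneins reached 0.593 and 1.06 percent of ziram. Those percentages of its ziram mean amount to under 0.1 CPM of HSPA6, which the depth would hardly show. Rotenone replicate 1, the highest for metallothioneins, was the lowest of its group for HSPA6. That order rests on 13, 17 and 12 HSPA6 reads in Rotenone replicates 1, 2 and 3 and is uncertain. For MS275 the rule found IRX4, a homeobox transcription factor, and BX640514.2. Their summed level, as a percent of the MS275 mean, was 4.05 to 12.8 in MPP, 0.602 to 4.89 in ziram, 3.78 to 8.53 in methylmercury and 0.553 to 1.33 in DMSO. In the Rotenone libraries it was 0, 0 and 13.8 percent, in 6-HD 3.37, 6.16 and 0, and in Paraquat 0, 0.408 and 0. Rotenone replicate 1, 6-HD replicate 3 and Paraquat replicates 1 and 3 were the higher libraries of their groups for near-absent metallothioneins. They had no read of either gene. Genes that mark MS275 cannot report signal from ziram. With MS275 means of 2.82 CPM for IRX4 and 2.52 CPM for BX640514.2, the depth would also hardly show a share near 1 percent, so no conclusion is drawn. No gene met the rule for the other 5 toxicants. Whether reads of one library reached another was not tested.

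MTF1 itself, the metal-sensing regulator, was not called with ziram or methylmercury, at 13.8 ± 0.459 and 13.3 ± 1.04 CPM, against 12.1 ± 1.82 CPM in DMSO (edgeR adjusted p = 0.961 and 0.818). Its target SLC30A1, which exports zinc from the cell, rose in both, to 89.4 ± 1.49 CPM in ziram (3.52-fold, edgeR adjusted p = 1.05e-10) and 70.6 ± 8.11 CPM in methylmercury (2.78-fold, edgeR adjusted p = 7.68e-08), against 25.5 ± 2.05 CPM in DMSO. Ziram and methylmercury did not differ detectably for SLC30A1 (log2 0.34, edgeR adjusted p = 0.248), whereas they differed by 5.84-fold or more for every metallothionein tested. In MPP SLC30A1 fell to 18.8 ± 2.17 CPM (edgeR adjusted p = 0.0395), the direction opposite to that of MT1G and MT1M there. It was not called in MS275, Paraquat, Rotenone or 6-HD, at 23.7, 23.1, 19.2 and 26.6 CPM.

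Of 22 zinc transport and MTF1 genes tested, 2 were higher and 1 lower in ziram, where 0.408% of all genes were higher and 0.122% lower. SLC30A2, a vesicular zinc transporter, stood at 16.8 ± 2.89 CPM in ziram, against 0.869 ± 0.209 CPM in DMSO (log2 4.32, edgeR adjusted p = 1.81e-08). SLC39A10, a zinc importer, fell to 157.5 ± 12.7 CPM in ziram, against 282 ± 4.37 CPM in DMSO (edgeR adjusted p = 1.64e-07). In methylmercury, where 0.223% of all genes were higher and 0.0637% lower, SLC30A1 and SLC30A2 were higher and 0 of the list lower, with SLC30A2 at 3.27 ± 0.838 CPM (edgeR adjusted p = 0.0253). SLC39A14, an importer of zinc and iron, was higher in MS275, MPP and Rotenone. MS275 had 4 higher and 6 lower, a share near that of all genes there (20.1% higher and 23% lower). MPP had 1 higher and 4 lower (all genes 5.77% and 5.02%), and Rotenone 1 and 0 (2.76% each way). Paraquat and 6-HD had 0 and 0 by edgeR, where 0% and 0.0106% of all genes were called, with 0 of the 22 at an unadjusted p under 0.05 and 0 by DESeq2 in each of the last 2.

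Among 14 tested genes of oxidative and heat stress, 6 were higher and 0 lower in ziram (all genes 0.408% and 0.122%). In methylmercury 5 were higher and 0 lower (all genes 0.223% and 0.0637%). MS275 had 4 higher and 7 lower (all genes 20.1% and 23%), MPP 2 and 1 (5.77% and 5.02%) and Rotenone 1 and 2 (2.76% each way). Paraquat and 6-HD had 0 and 0 by edgeR or DESeq2, where edgeR called 0% and 0.0106% of all genes. HMOX1, which breaks down heme, stood at 179.6 ± 63.5 CPM in ziram (7.27-fold, edgeR adjusted p = 3.54e-13) and 74.4 ± 7.35 CPM in methylmercury (3.01-fold, edgeR adjusted p = 7.24e-07), against 24.8 ± 1.07 CPM in DMSO. HMOX1 also rose in MS275, to 49.7 ± 5.72 CPM (edgeR adjusted p = 1.02e-05), where MT1F and MT1X did not pass. It was not called in Paraquat, MPP, Rotenone or 6-HD. SLC7A11, the cystine importer, was at 38.6 ± 12.0 CPM in ziram, against 3.63 ± 1.21 CPM in DMSO (10.3-fold, edgeR adjusted p = 1.05e-10). It stood at 16.4 ± 3.27 CPM in MPP and 6.16 ± 0.934 CPM in methylmercury. NQO1, a quinone reductase, was 2.89-fold higher in methylmercury (edgeR adjusted p = 1.32e-08). TXNRD1, a thioredoxin reductase, was 1.52-fold higher in methylmercury (edgeR adjusted p = 5.77e-06).

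Copper genes and the neighbours of the cluster were read against the 0.53% of all genes called in ziram and 0.286% in methylmercury, at which 0 calls in lists this short is near the background. Of 7 copper genes 0 were called in ziram and in methylmercury by edgeR or DESeq2, and 0 had an unadjusted p under 0.05. SLC31A1, the copper importer, was lower in MS275, where 43.2% of all genes were called (edgeR adjusted p = 8.21e-10). Of 8 genes on either side of the metallothionein cluster, 0 were called in ziram by edgeR or DESeq2 and 0 had an unadjusted p under 0.05. In methylmercury 1 of the 8 was called lower and 0 higher, by edgeR and by DESeq2, where edgeR called 0.0637% of all genes lower. Set against methylmercury directly, ziram had 1 of the 8 higher and 0 lower (all genes 0.743% and 0.345%).

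By Pearson correlation of log2(CPM + 0.5) over the 24 libraries, the genes outside the family most like MT1G were HSPA6 (0.87), SLC7A11 (0.78), HMOX1 (0.779), RAPGEFL1 (0.768) and MARCH1 (0.746). For MT1X they were HMOX1 (0.868), SLC30A1 (0.865), HSPA6 (0.858), ASNS (0.83) and RAPGEFL1 (0.825). The libraries share groups and the 3 ziram libraries carry much of these values, which are given as descriptions. Over the 21 libraries without ziram, members stayed close to MT1G in the order MT1E (0.956), MT2A (0.868) and MT1M (0.843), ahead of MT1X (0.513) and MT1F (0.406). The genes outside the family closest to MT1G in those 21 libraries were AC021851.1 (0.767), MREG (0.741), CDC42 (0.729), TMEM123 (0.711) and ACSL4 (0.71), none of which was among the 5 named over all libraries.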

How the data were processed

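RNA was selected for polyadenylated transcripts, depleted of ribosomal sequence and made into TruSeq libraries, per the labels' protocols. Per the submitters' processing notes, STAR, HTSeq, DESeq and GRCh38 were used; no version, strand setting or annotation is stated. Raw counts were deposited by the authors for 58051 genes in 24 columns, all mapped by name; their normalized matrix was not used here. The 266 genes without a name held 0.00492% of counts.

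Counts were fitted with edgeR 4.0.16 (R 4.3.3): TMM scaling, default expression filter with a minimum count of 10 (18852 genes), 1 coefficient for each of 8 groups (16 residual degrees of freedom), quasi-likelihood tests, Benjamini-Hochberg adjustment over all genes and a threshold of 0.05. The procedure was tested on simulated data. Near-absent members had a mean under 1 CPM in DMSO. With 1 to 3 DMSO reads, ratios of summed counts carry exact 95% intervals; with 0, bounds use a floor of 3 counts over the group. Intervals and floors cover counting error only. Correlations used a pseudocount of 0.5. Sequences came from RefSeq GRCh38.p14 promoters (3 of 10 members), coordinates from GENCODE 29.

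Named were all members, MTF1, SLC30A1 and HMOX1, at most 4 called genes of a list by adjusted p, and the 5 genes most alike. Members and lists were chosen with earlier results of these data known. Replicate numbers did not pair the libraries: 25 of 84 same-number pairs of deviations correlated above 0.1. Alternatives were RLE factors, library totals alone, no filter, DESeq2 1.42.0, the 2 groups alone, a replicate block, and each library left out.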

Additional observations from a re-analysis of the deposited data

Results flagged for a closer look

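Outside the 10 members, 5 metallothionein genes or pseudogenes had reads in ziram and 0 reads in DMSO, which is why they are given here: MT1JP 122 reads, MT1B 21, MT2P1 7, MT1DP 6 and MT1CP 5 over the 3 ziram libraries. MT1JP was spread evenly, with 43, 38 and 41 reads, whereas all 5 reads of MT1CP came from ziram replicate 1. None of the 5 had a read in any other group. The match of these reads to the 10 members was not tested.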

How the results depend on the processing

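Ziram kept 8 to 9 members higher under each library left out and 8 by DESeq2; ziram against methylmercury kept 8 to 9 and 6. Over all genes DESeq2 called 122 of 15982 higher in ziram against DMSO and 242 of 13760 higher in ziram against methylmercury. Leaving out 1 library gave 0 to 3 members higher for MS275, 0 to 2 for MPP, 0 to 4 for Rotenone, 1 to 4 for methylmercury, and 0 for Paraquat and 6-HD. Without the filter on low counts 4 members were higher in MS275, 3 in Paraquat, 4 in MPP and 2 in 6-HD. Of all 38200 genes, that setting called 3470 higher in MS275, 3 in Paraquat, 1047 in MPP and 13 in 6-HD. DESeq2 gave 3 in MS275, where it called 4286 of 21906 genes higher. Rotenone fitted alone with DMSO gave 2, where 122 of 15808 genes were higher. The cause was not tested. No member was called lower under any of these settings. With a replicate block, which the numbers do not warrant, all 67 member values kept their side of the threshold, and 9 members remained higher in ziram. RLE factors and library totals alone moved 0 of 67 values across it. Over all genes, library totals alone shifted the split of calls to 102 higher and 13 lower in ziram (77 and 23 with TMM), 592 and 1564 in MPP (1088 and 946), and 160 and 43 in ziram against methylmercury (140 and 65).

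Directions changed for 6 values when 1 library was left out, none of them called: log2 differences ranged over -0.06 to 0.15 for MT1F in MS275, -0.09 to 0.26 and -0.07 to 0.33 for MT1F and MT1X in Paraquat, -0.27 to 0.16 and -0.78 to 1.00 for MT1F and MT1X in Rotenone, and -0.02 to 1.47 for MT2A in 6-HD.

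Counting as near absent only members under 0.2 CPM in DMSO gave 0.790% of ziram for methylmercury and 0.0115% for DMSO. The share of all member reads, as a percent of ziram's, was 37.0 in MS275, 32.1 in Paraquat, 51.5 in MPP, 59.7 in Rotenone, 30.7 in 6-HD, 35.7 in methylmercury and 7.27 in DMSO. Depth limits MT1A, MT1H, MT1L and MT3 outside ziram, where 0 to 8 reads a group were seen.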
